A study of Mus musculus with 36 samples.

Results

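The major urinary protein (Mup) genes of the mouse liver were followed across 3 diets. The members described are the 10 genes Mup1, Mup3, Mup7, Mup11, Mup12, Mup15, Mup17, Mup20, Mup21 and Mup22, out of 12831 genes with a row in at least 1 of the 3 liver gene tables, and all 10 were measured in all 3 comparisons. They were picked by symbol with their liver results already known, so their liver fold changes and adjusted p-values are given as a description and are no independent test. The liver groups were calorie-restricted mice (CR), mice fed in a restricted time without calorie restriction (TR) and mice fed ad libitum (AL). Each group held 6 libraries, 1 per labelled animal, after 16 weeks on the diet. Animal number 24 stands on both a CR and a TR liver label, and these were taken as different mice. All mice were of the C57BL/6J strain, and no transgene or drug is named for any group. The sources used here name neither the sex and age of the mice nor the hour of sampling, so the time since the last meal cannot be told apart from the diet. The question behind the design is whether a daily fast alone gives the transcriptional response of calorie restriction.

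Major urinary proteins are small lipocalins, barrel-shaped carriers of hydrophobic ligands. Hepatocytes secrete them into the blood, and they pass into the urine, where they bind and slowly release volatile pheromones and mark the individual. In mice their liver expression is higher in males and depends on the pulsed pattern of growth hormone secretion, which acts through the receptor, JAK2 and STAT5B. The genes lie side by side on chromosome 4, where a central array of nearly identical copies is flanked by more divergent peripheral genes. Mup20 encodes darcin, a male scent protein that attracts females.

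In GENCODE M21 (GRCm38) the cluster ran from chr4:59956804-62150863, a span of 2194 kb with 22 numbered Mup genes, 16 of them central and 6 peripheral by position. The liver gene tables held 19 of the 22, with no row for the peripheral genes Mup4, Mup5 and Mup6. Of the members, Mup7, Mup1, Mup11, Mup12, Mup22, Mup15 and Mup17 are central, in this order along the chromosome, and Mup20, Mup3 and Mup21 are peripheral. Close paralogs share reads, and how far they do differs among the members. The median identity of coding sequences was 98.7% between central genes and 88.6% between a central and a peripheral gene, over 120 and 96 pairs. Counting words of 100 bases in the annotated transcripts, 97.8% of those of Mup3 and 95.5% of those of Mup21 occurred in no other gene among 54 of the locus. The share was 61.2% for Mup20, 44.3% for Mup1, 40.6% for Mup17, 29.4% for Mup11, 23.9% for Mup7 and 22.5% for Mup12. It was 2.66% for Mup15 and 0% for Mup22, of whose words 92.4% also occurred in Mup10. Reads of such genes can be assigned only by the estimation step of the quantifier, so values of single central genes, and of Mup15 and Mup22 most among the members, are uncertain. Mup19, a central gene outside the members, had 0% as well. The sources used here do not name the read length.

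The promoters show how alike these genes are at their starts. RefSeq (GRCm38.p6) promoter entries were matched for 6 of the 10 members, and the 250 bases before the gene start of 4 of them are shown. Mup15 and Mup17 had the 2 lowest fold changes against AL among liver genes whose log2 mean CPM reached 1. Mup11 is another central gene, with a smaller change, and Mup3 is the peripheral gene with no call. All 4 lie on the minus strand and are written in the direction of transcription. The GENCODE genes start upstream of the RefSeq starts, so the last 39 bases of the Mup15 and Mup17 windows, 16 of Mup11 and 25 of Mup3 lie inside the GENCODE gene. Capitals mark the word TATATAA, which many core promoters hold as a TATA box. In the windows that hold it, it lies within those last bases, inside the GENCODE gene. Whether it acts as a TATA box here was not tested.
Mup15 promoter, chr4:61439705-61439954: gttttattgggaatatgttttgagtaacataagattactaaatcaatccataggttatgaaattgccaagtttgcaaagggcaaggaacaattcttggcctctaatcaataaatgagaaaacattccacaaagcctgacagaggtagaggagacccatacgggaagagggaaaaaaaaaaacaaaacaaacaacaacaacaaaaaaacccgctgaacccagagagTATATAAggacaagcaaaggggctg
Mup17 promoter, chr4:61595833-61596082: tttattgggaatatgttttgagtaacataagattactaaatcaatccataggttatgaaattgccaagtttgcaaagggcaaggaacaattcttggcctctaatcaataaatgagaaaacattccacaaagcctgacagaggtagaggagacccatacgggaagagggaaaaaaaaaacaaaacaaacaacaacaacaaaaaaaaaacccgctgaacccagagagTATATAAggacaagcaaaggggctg
Mup11 promoter, chr4:60662396-60662645: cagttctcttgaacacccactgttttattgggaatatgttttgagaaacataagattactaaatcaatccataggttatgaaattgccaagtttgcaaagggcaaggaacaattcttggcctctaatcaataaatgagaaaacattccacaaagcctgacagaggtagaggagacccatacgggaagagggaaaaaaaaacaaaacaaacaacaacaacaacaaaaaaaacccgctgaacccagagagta
Mup3 promoter, chr4:62087318-62087567: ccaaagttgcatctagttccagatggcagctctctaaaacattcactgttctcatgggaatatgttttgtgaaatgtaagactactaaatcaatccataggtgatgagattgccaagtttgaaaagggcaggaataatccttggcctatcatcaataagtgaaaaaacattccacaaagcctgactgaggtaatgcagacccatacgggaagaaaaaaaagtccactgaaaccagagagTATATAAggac
The Mup15 and Mup17 windows aligned with 0 substitutions and 4 gap columns in 251 columns, an identity of 98.4%. Mup15 and Mup11 differed by 1 substitution and 6 gap columns, with 97.0% identity, while Mup15 and Mup3 were 75.0% identical. The word TATATAA occurred on either strand in 11 of 14 Mup promoters with an entry and in 3.26% of 27025 RefSeq promoters. The Mup11 window ends inside the place where the other promoters have it. The STAT-type word TTCNNNGAA occurred in 0 of the 14 windows and in 7.18% of all, and the C/EBP-type word TTGCNNAAG in 0 of 14 and in 3.25%. A pair of words was searched after the sequences had been read. GAGTAACAT was found in Mup15 and Mup17 and in no other of the 14, and GAGAAACAT in 7 others, Mup11 included. Over all promoters these words had shares of 0.104% and 0.3%. A word present or absent in these windows is a description of the letters and says nothing of any factor's binding.

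The files hold the authors' comparisons of groups and no values per library, so the spread between mice, the depth and the number of mice behind a direction are not known here. Group levels were derived from the deposited log2 mean CPM, that is, of reads scaled to library size, and the log2 fold change of each table, and the level of a group is the mean over its 2 tables. The AL level derived from both tables differed by a median of -0.0087 log2 units over 10847 genes, the CR level by 0.041 and the TR level by 0.051. Hepatocyte markers were at log2 mean CPM of 9.96 to 16.7 in the liver tables. Of 5 adipocyte genes, Adipoq, Lep and Plin1 had no row there. Cidec and Fabp4 were measured, at log2 mean CPM of 0.49 to 2.76.

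**Figure D1:**
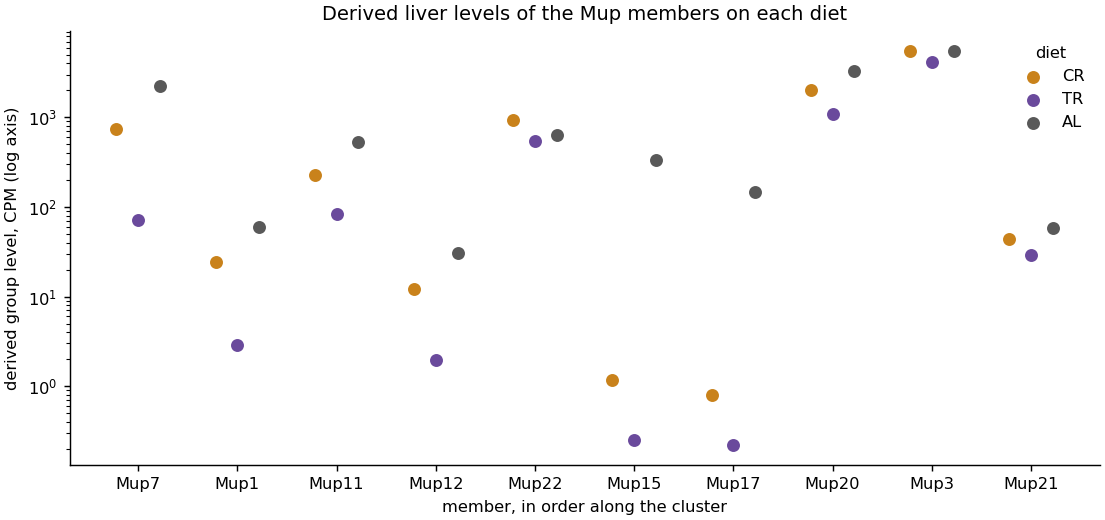
Derived liver level of each of the 10 members (CPM, log axis) in CR, TR and AL, in the order of the genes along the cluster; each point is 1 group level without an error. Mup3 lies at 4144 CPM or higher on every diet, while Mup15 and Mup17 lie at 338 and 149 CPM in AL and near or below 1 CPM in CR and TR.

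Most central members were lower in CR than in AL livers, and lower again in TR livers. Mup7 stood at 742 CPM in CR and 72.2 CPM in TR livers, against 2255 CPM in AL livers, as derived from the authors' deposited tables. The values of Mup7 in the authors' deposited tables, where FDR stands for the adjusted p, were log2 fold changes of -1.58 in CR (approximate SE 0.48, FDR = 0.0147) and -4.95 in TR (approximate SE 0.69, FDR = 6.5e-11). Its level in TR livers was thus 30.8 times lower than in AL. Mup1, Mup12 and Mup11 followed the same order of diets at lower levels. Mup1 had 24.0 CPM in CR, 2.90 CPM in TR and 60.5 CPM in AL livers, with -1.31 in CR (FDR = 0.0257) and -4.36 in TR (FDR = 6.4e-19) in the authors' deposited tables. Mup12 had 12.3 CPM in CR, 1.97 CPM in TR and 30.5 CPM in AL livers, with -1.29 (FDR = 0.0071) and -3.93 (FDR = 3.7e-14) in the authors' deposited tables of CR and TR. Mup11 had 225 CPM in CR, 84.4 CPM in TR and 533 CPM in AL livers, with -1.22 (FDR = 3.1e-06) and -2.64 (FDR = 1.4e-12) in the authors' deposited tables of CR and TR. For these 4 genes AL was highest and TR lowest.

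The derived levels of Mup15 and Mup17 were nearly lost on both diets. Mup15 was derived at 1.17 CPM in CR and 0.248 CPM in TR livers, against 338 CPM in AL livers. Mup17 was derived at 0.789 CPM in CR and 0.221 CPM in TR livers, against 149 CPM in AL livers. By these derived levels both genes were well expressed in AL and close to the lower end of the tables in the other groups. The authors' deposited tables gave Mup15 log2 fold changes of -8.19 in CR (approximate SE 0.71, FDR = 1.0e-27) and -10.45 in TR (approximate SE 0.42, FDR = 2.0e-133). For Mup17 the authors' deposited tables gave -7.61 in CR (approximate SE 0.56, FDR = 3.3e-39) and -9.44 in TR (approximate SE 0.44, FDR = 1.1e-98). Among genes whose log2 mean CPM reached 1 they were the 2 lowest of 10899 in CR minus AL and of 10940 in TR minus AL, and no other of these genes reached -7 in either table. They lie 156 kb apart, and Mup16 between them had -2.25 in CR (FDR = 4.0e-08) and -3.43 in TR (FDR = 4.9e-14) in the authors' deposited tables. Of the 100-base words of Mup15 2.66% are its own, and of those of Mup17 40.6%. The values of Mup15 thus rest almost wholly on how the quantifier divided shared reads. How many reads lie behind the levels on the restricted diets is not known.

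Mup22 was the member that was higher in CR. It stood at 942 CPM in CR and 542 CPM in TR livers, against 631 CPM in AL livers. The authors' deposited tables gave 0.60 in CR (approximate SE 0.16, FDR = 0.0034) and -0.20 in TR (approximate SE 0.31, FDR = 0.713). None of its 100-base words is its own, so this value can also hold reads of Mup10 and other copies.

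The peripheral members showed smaller differences. Mup20, which encodes darcin, had 2018 CPM in CR and 1093 CPM in TR livers, against 3283 CPM in AL livers. Its log2 fold changes were -0.68 in CR (FDR = 0.0175) and -1.57 in TR (FDR = 4.9e-05) in the authors' deposited tables. Mup21 had 44.0 CPM in CR, 29.2 CPM in TR and 57.6 CPM in AL livers, with -0.37 (FDR = 0.0431) and -0.96 (FDR = 0.0125) in the authors' deposited tables of CR and TR. For both AL was highest and TR lowest, as for Mup7, Mup1, Mup12 and Mup11. Mup3 had 5495 CPM in CR, 4144 CPM in TR and 5466 CPM in AL livers. The authors' deposited tables gave 0.03 in CR (approximate 95% interval -0.32 to 0.38, FDR = 0.945) and -0.38 in TR (approximate 95% interval -0.90 to 0.14, FDR = 0.342). Per kb of transcript Mup3 was the most abundant member on every diet, at 5858 CPM per kb in CR, 4418 in TR and 5828 in AL. In AL livers Mup20 followed with 3538 CPM per kb and Mup7 with 2433, while in CR Mup20 was followed by Mup22, with 2174 and 1094 CPM per kb.

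**Figure D2:**
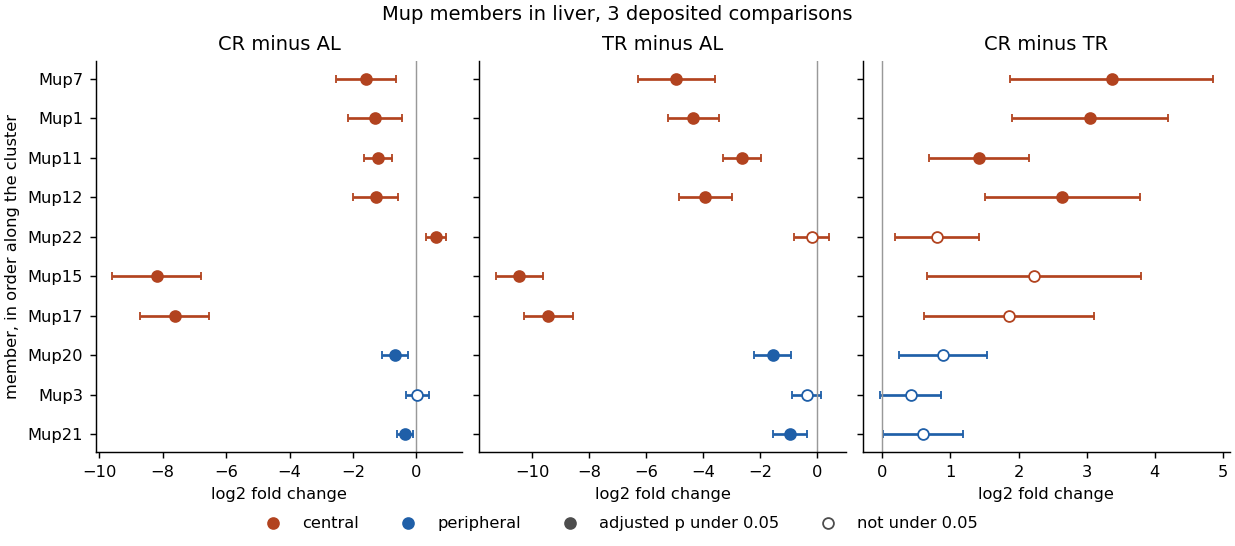
Log2 fold change (x axis) of the 10 members, down the page in cluster order, in CR minus AL, TR minus AL and CR minus TR liver; points are the authors' deposited values, bars the approximate 95% intervals, filled points have an adjusted p under 0.05. Mup15 and Mup17 stand apart at -7.61 and below against AL, and all 10 members are positive in CR minus TR.

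Counted over the members, 8 were lower and 1 higher in CR than in AL in the authors' deposited table at an adjusted p under 0.05, where 11.2% of all 12636 genes were called (5.79% higher, 5.37% lower). In TR 8 were lower and 0 higher, where 18.9% of 12691 genes were called (9.35% higher, 9.54% lower). The rule used these contrasts, so the counts describe the choice of members. The median log2 fold change of the members was -1.26 in CR and -3.28 in TR, beside medians of -0.0038 and -0.0005 over all genes. Both comparisons share the AL libraries.

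Set directly against TR, the members were higher in CR. All 10 log2 fold changes in CR minus TR were positive in the authors' deposited table, and 4 had an adjusted p under 0.05, where 0.469% of 12593 genes were called (0.159% higher, 0.31% lower). These 4 were the central genes Mup7 at 3.37 (FDR = 0.0055), Mup1 at 3.05 (FDR = 3.0e-04), Mup12 at 2.64 (FDR = 0.0041) and Mup11 at 1.42 (FDR = 0.0347). Mup7, Mup1 and Mup12 were the 3 highest of the 10866 genes whose log2 mean CPM reached 1. The other members were not called. In the authors' deposited table Mup15 was at 2.23 (approximate 95% interval 0.65 to 3.80, FDR = 0.218) and Mup17 at 1.85 (0.60 to 3.11, FDR = 0.182). Mup20 was at 0.89 (FDR = 0.234), Mup22 at 0.80 (FDR = 0.282), Mup21 at 0.60 (FDR = 0.493) and Mup3 at 0.41 (FDR = 0.551) in the authors' deposited table. The median of the members was 1.64, beside 0.0072 over all genes.

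Position in the cluster went with the size of the difference. The 7 central members had median log2 fold changes of -1.31 in CR minus AL, -4.36 in TR minus AL and 2.23 in CR minus TR, and the 3 peripheral members -0.37, -0.96 and 0.60. Over all 16 central genes the medians were -1.44, -3.31 and, for the 14 measured there, 1.62. The central genes did not move as one. Mup2, Mup10 and Mup22 lay at 0.34, 0.01 and 0.60 in CR, with Mup22 alone called, and at -0.77 (FDR = 0.0129), -0.85 (FDR = 0.0122) and -0.20 (FDR = 0.713) in TR in the authors' deposited tables. Mup18, a central gene beside Mup17, was at -1.03 in CR (FDR = 0.0058) and -0.89 in TR (FDR = 0.361), and was the Mup gene with a negative value in CR minus TR, -0.14 (FDR = 0.974), in the authors' deposited tables. Levels and read sharing differ between the central and the peripheral genes as well, and their part in the difference was not tested.

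**Figure D3:**
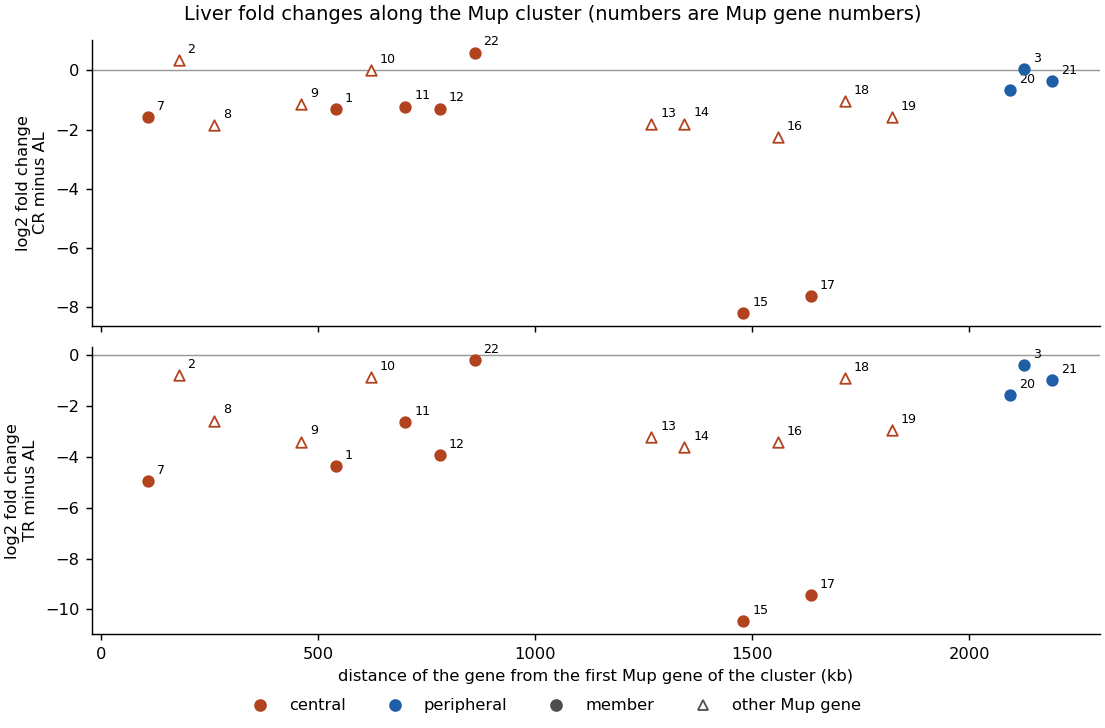
Log2 fold change (y axis) against the distance of each of the 19 measured Mup genes from the first Mup gene of the cluster (kb), for CR minus AL above and TR minus AL below; filled circles are members, open triangles other Mup genes. The peripheral genes at the right end lie between -1.57 and 0.03, and Mup15 and Mup17 lie far below the genes on either side of them.

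The 9 Mup genes that are not members are central and were mostly lower too. In CR minus AL 6 were lower in the authors' deposited table, Mup8, Mup13, Mup14, Mup16, Mup18 and Mup19, with a median over the 9 of -1.58 and a range of -2.25 to 0.34. In TR minus AL 8 were lower, all but Mup18, with a median of -2.95. Of the 7 measured in CR minus TR 4 were higher, namely Mup9 at 2.27, Mup14 at 1.82, Mup19 at 1.37 and Mup2 at 1.11, in the authors' deposited table. Over all genes 5.37% were called lower in CR minus AL, 9.54% lower in TR minus AL and 0.159% higher in CR minus TR. Mup8 and Mup13 had rows only in the comparisons with AL, where they were highest, so their calls are a description. Mup14 had 111 CPM in CR and 31.8 CPM in TR livers, against 393 CPM in AL livers.

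Summing over the family lessens the uncertainty from reads shared within it. Of the 100-base words of Mup20, however, 38.8% also occurred in Mup-ps19, which is not in the sums. The 19 Mup genes summed to 9890 CPM in CR and 6163 CPM in TR livers, against 13925 CPM in AL livers, which is 71.0% and 44.3% of the AL level. The 16 central genes summed to 2333 CPM in CR and 897 CPM in TR, against 5118 CPM in AL, or 45.6% and 17.5%. The 3 peripheral genes summed to 7557 CPM in CR and 5266 CPM in TR, against 8807 CPM in AL, or 85.8% and 59.8%. The central sums without Mup15 and Mup17 were 2331 CPM, 897 CPM and 4632 CPM in CR, TR and AL. Central genes thus made up 23.6% of Mup counts in CR and 14.6% in TR, against 36.8% in AL. Mup3 alone made up 55.6% in CR and 67.2% in TR, against 39.3% in AL, and Mup7 7.50% in CR and 1.17% in TR, against 16.2% in AL. These shares are of counts, not per length. In bulk tissue fewer expressing cells and less RNA per cell cannot be told apart.

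**Figure D4:**
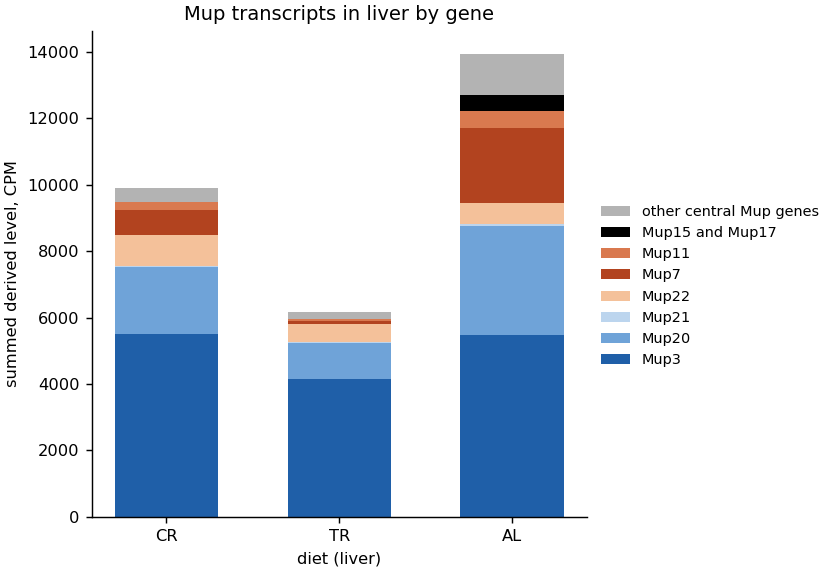
Summed derived liver level of the 19 measured Mup genes (CPM, bars from 0) in CR, TR and AL, with segments for single genes and groups of genes. The bars end at 9890, 6163 and 13925 CPM, and the Mup7 segment is 742, 72.2 and 2255 CPM high.

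The transcript rows come from the same reads, divided further by the authors' quantifier, and are no second measurement. The tables held 18 transcripts of the members. By the authors' deposited transcript tables, CR minus AL had 8 lower and 1 higher, where 2.66% of all transcripts were called (1.45% higher, 1.21% lower). By the authors' deposited table TR minus AL had 11 lower and 0 higher, beside 3.94% of all (1.96% higher, 1.99% lower). For CR minus TR it gave 4 higher and 0 lower, beside 0.323% of all (0.157% higher, 0.165% lower) in the authors' deposited table. Mup1, Mup3, Mup7 and Mup11 had 3 transcripts each, and the other 6 members had 1. Of the Mup7 transcripts, Mup7-201 had -1.60 in CR and -5.03 in TR and Mup7-202 -1.78 and -5.30 in the authors' deposited tables. Mup7-203 was at -1.15 in CR (FDR = 0.113) and -2.86 in TR (FDR = 5.5e-05) and was not called in CR minus TR (FDR = 0.578) in the authors' deposited tables. The transcripts of Mup11 differed more. Mup11-202 was at -1.94 in CR (FDR = 3.5e-08) and -3.95 in TR (FDR = 3.8e-21), while Mup11-201 was at -0.06 (FDR = 1.000) and -1.06 (FDR = 0.115) in the authors' deposited tables. For Mup1 the transcript Mup1-203 was at -1.62 in CR (FDR = 0.248) and -4.68 in TR (FDR = 7.7e-11) in the authors' deposited tables, while Mup1-202 was at 1.37 and Mup1-204 at -0.07 in CR, neither called. The calls of the Mup1 gene row in CR minus AL and in CR minus TR were thus not seen in its transcripts, whose FDR in CR minus TR was 0.0634 to 0.440 in the authors' deposited table. None of the 3 transcripts of Mup3 was called in any comparison by the authors' edgeR test (1 in each had an unadjusted p under 0.05), and their values in CR and TR lay between -0.49 and 0.31.

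**Figure D5:**
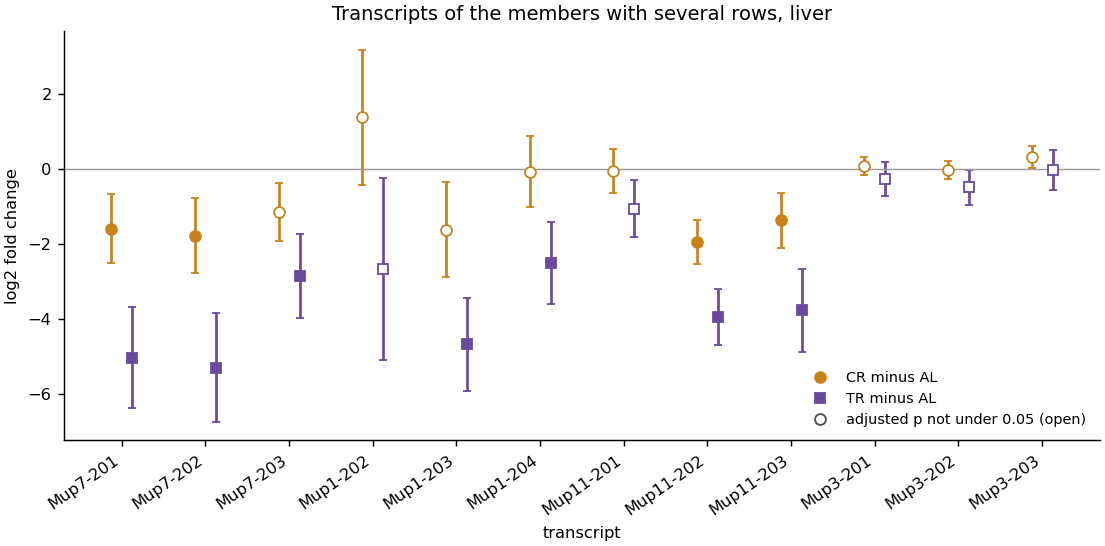
Log2 fold change (y axis) of the 12 liver transcripts of Mup7, Mup1, Mup11 and Mup3, for CR minus AL (circles) and TR minus AL (squares), with approximate 95% intervals; filled points have an adjusted p under 0.05. Mup11-201 lies near 0 in CR beside Mup11-202 at -1.94, and the Mup3 transcripts stay near 0.

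Other genes of sex-dependent liver expression were called on both diets. Of 16 measured genes known to be higher in male liver, Mup genes left out, 4 were higher and 0 lower in CR (median 0.12), and 0 higher and 6 lower in TR (median -0.60) in the authors' deposited tables. The 6 were C6, Cyp2d9, Cyp4a12a, Cyp4a12b, Cyp7b1 and Elovl3. Over all genes 5.79% were called higher and 5.37% lower in CR, and 9.35% and 9.54% in TR. Cyp4a12a, a fatty acid hydroxylase, was at -0.28 in CR (FDR = 0.448) and -1.54 in TR (FDR = 1.9e-04), and Elovl3, a fatty acid elongase, was at 0.91 in CR (FDR = 0.0119) and -1.58 in TR (FDR = 0.0028) in the authors' deposited tables. Elovl3 was the 1 gene of this list called in CR minus TR, at 2.48 (FDR = 1.9e-04) in the authors' deposited table. Of genes known to be higher in female liver, 6 of 11 measured were higher and 1 lower in CR (median 0.76), and 10 of 14 were higher and 0 lower in TR (median 1.49) in the authors' deposited tables. Cyp2b9, a female-biased cytochrome P450, was at 5.69 in CR (FDR = 1.5e-12) and 6.61 in TR (FDR = 3.5e-16), and Cyp2a4, a steroid hydroxylase, at 3.46 (FDR = 7.5e-05) and 7.65 (FDR = 3.8e-14) in the authors' deposited tables of CR and TR. In CR minus TR 0 were higher and 4 lower, A1bg, Cyp2a4, Cyp2b13 and Fmo2, in the authors' deposited table. There 0.159% of all genes were called higher and 0.31% lower. Cux2, Cyp2b13 and Hao2 had rows in the comparisons with TR and none in CR minus AL. Their rows thus depend on the TR libraries, and the calls of Cyp2b13 and Hao2 there are a description and no support.

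Genes of the growth hormone pathway were measured beside them. Of 11, Igf1, the circulating growth factor that growth hormone induces, was the 1 called in CR, at 0.62 (FDR = 3.5e-04). It was at 0.55 in TR (FDR = 0.0014) in the authors' deposited tables. Over all genes 11.2% were called in CR and 18.9% in TR, so the count in CR lies near the background. In TR Igfals and Igfbp3, which carry IGF1 in plasma, were also higher, and the kinase gene Jak2 was lower, at -0.45 (FDR = 0.0170), in the authors' deposited table. The receptor gene Ghr was at 0.36 in CR (FDR = 0.0848) and 0.08 in TR (FDR = 0.737), and Stat5b at 0.02 (FDR = 0.962) and 0.20 (FDR = 0.408), in the authors' deposited tables of CR and TR. None of the 11 was called in CR minus TR by the authors' edgeR test, while 4 had an unadjusted p under 0.05. Among transcription factors tied to Mup or sex-dependent liver expression, Cebpb, Srebf1 and Zhx2 were higher on both diets, and 0 were lower. Measured were 13 in CR and 14 in TR, where 5.79% and 9.35% of all genes were called higher. Zhx2, a regulator of several liver genes, was at 0.40 in CR (FDR = 0.0212) and 0.39 in TR (FDR = 0.0223) in the authors' deposited tables. None was called in CR minus TR by the authors' edgeR test, while 3 had an unadjusted p under 0.05.

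Other secreted hepatocyte proteins were measured beside them. Of 24 plasma protein genes 2 were higher in CR (median 0.21) and 4 in TR (median 0.21) in the authors' deposited tables, and 0 were lower on either diet. Over all genes 11.2% were called in CR and 18.9% in TR, so these counts lie near the background. Other lipocalins rose or did not pass the test, except Obp2a. Orm1, Orm2 and Orm3, acute phase lipocalins, were higher in CR, out of 9 measured. Orm1, Orm2, Ambp and Ptgds were higher and Obp2a lower in TR, out of 10, and Orm1 was at 0.82 in CR (FDR = 1.9e-05) and 0.78 in TR (FDR = 4.2e-06) in the authors' deposited tables. Ptgds had rows only in the comparisons with TR and Obp2a only in those with AL, so their calls are a description. Of 8 hepatocyte markers 2 were higher and 0 lower on each diet, with medians of 0.30 in CR and 0.18 in TR.

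Genes outside the Mup family were ranked by their nearness to the median member in CR minus AL and TR minus AL. Distance was Euclidean on the log2 fold change, over 10308 genes with an established symbol whose log2 mean CPM reached 1. The nearest were Derl3, Lars2, Gnai1, Hmgcs1 and Msmo1, at distances of 1.02 to 1.32. All were lower in CR and less low in TR than the median member, at -1.26 and -3.28. In CR minus TR these genes lay between 0.37 and 0.71, against a members' median of 1.64. None was called there by the authors' edgeR test (FDR of 0.190 to 0.805). Derl3, of the endoplasmic reticulum degradation machinery, had -2.01 in CR (FDR = 0.0049) and -2.60 in TR (FDR = 4.7e-05) in the authors' deposited tables. Likeness over these 2 differences, which share the AL libraries, is a description.

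Inguinal fat under the skin (iWAT) was sequenced from largely the same mice and was not used to choose the members. Of the 5 members measured there in CR minus AL 3 were lower and 0 higher in the authors' deposited table (7.3% of all genes were called, 3.52% higher and 3.78% lower), with Mup20 at -4.89 (FDR = 0.0030), Mup3 at -3.50 (FDR = 0.0149) and Mup7 at -4.53 (FDR = 0.0288). In TR minus AL 0 of 6 were called in the authors' deposited table by edgeR's test, and 0 had an unadjusted p under 0.05, where 10% of genes were called (4.76% higher, 5.24% lower). In CR minus TR 2 of 5 were lower, Mup3 at -5.46 (FDR = 0.0110) and Mup22 at -3.04 (FDR = 0.0300), in the authors' deposited table, where 0.918% of genes were called (0.0612% higher, 0.857% lower). Mup3, the most abundant, had a log2 mean CPM of 5.15 in the iWAT table of CR minus AL, against 12.4 in that of liver. In TR minus AL the members lay between -2.62 for Mup7 and 1.95 for Mup3, with approximate SE of 1.52 and 1.35. In CR minus TR they lay between -5.46 for Mup3 and -1.92 for Mup7, by the authors' deposited values. Plasma protein genes of the liver were lower in CR in iWAT too. Of 24 such genes 19 were lower in CR minus AL (median -3.80), 0 were called in TR minus AL by the authors' edgeR test (3 at an unadjusted p under 0.05, median 2.14) and 21 were lower in CR minus TR (median -6.01) in the authors' deposited iWAT tables. Of 8 hepatocyte markers 5 were lower in CR minus AL (median -3.84), 1 was higher in TR minus AL (median 2.32) and 7 were lower in CR minus TR (median -5.93). Their part in the iWAT values of the Mup genes was not tested.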

How the data were processed

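Liver and iWAT RNA sequencing of mice on 3 diets was read from the authors' comparison tables. Per the submitters' processing notes, bcl2fastq 2.20, STAR 2.5.3a, RSEM (no version named) and GRCm38.p5 were used. Per the file headers, the authors compared groups with edgeR generalized linear models; the sources used here do not name the filter, the normalization or the annotation. The log2 values are the authors' log2 fold changes and log2 mean CPM, per the file headers. As deposited, the score column holds the likelihood ratio of the authors' model. Each deposited table also gives a p-value and an FDR by the authors; FDR is the adjusted p of the text, called under 0.05 over all features of a table. It is 2-sided. Counts per library are not in these tables, so the planned count models were replaced by the deposited tests, and no depth, SD or interval from counts is given.

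The deposited p differed from the chi-square tail (1 degree of freedom) by at most 5.0e-06. For the approximate SE, the absolute log2 fold change was divided by the root of that likelihood ratio, and the approximate 95% interval is 1.96 SE to either side. With mean CPM m and fold f, group levels were 2mf/(1+f) and 2m/(1+f). The formulas for the approximate SE and the group levels, and the adjustment of p-values, were tried on simulated counts. The other steps were not.

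Members, gene lists and comparisons were chosen with earlier results of these data known. All 10 members are named, and other Mup genes when called or at the ends of a range. Also named are the 5 nearest genes outside the Mup family by distance, and from each list called genes, at most 4 per comparison with values. Ghr and Stat5b, which were not called, and genes beyond 4 in a printed list were named after their values were seen. All 35 Mup transcripts of the liver tables matched GENCODE M21. Alignments gave identities of coding sequences and promoters. Python 3.11.15, pandas 2.3.3, numpy 2.4.6 and scipy 1.17.1 were used.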

Additional observations from a re-analysis of the deposited data

Results flagged for a closer look

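The log2 fold changes of several members differed between iWAT and liver, by an approximate test of the difference (adjusted over 12012 genes in CR minus AL and 11878 in CR minus TR). The tissues came largely from the same mice and were taken as uncorrelated. The liver side of each difference holds values known when the members were chosen, so these p-values are no independent test. In CR minus AL the iWAT minus liver difference was -3.53 for Mup3 (adjusted p = 0.0186) and -4.21 for Mup20 (adjusted p = 0.0197), from the authors' deposited tables with edgeR fits. In CR minus TR it was -5.88 for Mup3, -5.29 for Mup7, -3.94 for Mup11, -6.32 for Mup20 and -3.84 for Mup22, with adjusted p-values of 0.0067 to 0.0257 from the authors' deposited edgeR fits. Plasma protein genes and hepatocyte markers were lower in iWAT too, with medians of -6.01 and -5.93 in CR minus TR. Their part in these differences was not tested.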

How the results depend on the processing

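No paired analysis was possible because the tables hold no values per library, and for the same reason leaving out single mice could not be done. The central split by protein identity was not run, since protein sequences were not used here; coding sequence identity of at least 90%, chosen after seeing the data, gave -1.13, -3.48 and 1.54 for central minus peripheral in CR minus AL, TR minus AL and CR minus TR, against -0.94, -3.40 and 1.63 by position. The identity used was that to Mup1, and Mup20, at 90.6%, counted as central by it. Only Mup3 and Mup21 were then left as peripheral members. No result changed its direction under any alternative run. Members called in CR minus AL numbered 9, against 5 at an adjusted p of 0.01 and 3 with Bonferroni adjustment, and those in CR minus TR 4, against 1 with Bonferroni adjustment. The members' median was -0.95 in CR minus AL, -2.10 in TR minus AL and 1.16 in CR minus TR without Mup15 and Mup17, an alternative added after seeing the data. It was -3.94 in TR minus AL with the most abundant transcript of each member, and 1.16 in CR minus TR for members whose log2 mean CPM reached 1. The central minus peripheral difference of medians was -3.40 in TR minus AL, against -2.35 over all Mup genes and -2.97 without Mup15 and Mup17, and 1.63 in CR minus TR, against 1.02 over all Mup genes. Leaving out Mup15 and Mup17 or low members leaves fewer genes; the set of all Mup genes holds more. For the other changes the cause was not tested. Of single members in single comparisons, 6 lost the call at 0.01, 10 with Bonferroni adjustment and 4 in transcript rows. The transcript rows took the transcript of each member with the lowest p, which favours keeping a call. Not taken were Mup1-202 at 1.37 and Mup3-202 at -0.04 in CR minus AL, whose signs differ from those of their gene rows. Depth is unknown, so how many reads lie behind the levels of Mup15 and Mup17 on the restricted diets is not known.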
